A study of Mus musculus with 24 samples.

Results

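The tetraspanin genes *Cd9*, *Cd37*, *Cd53*, *Cd63*, *Cd81*, *Cd82*, *Tspan3*, *Tspan13*, *Tspan31* and *Tspan32* were followed across the 8 groups of the QuantSeq data. They are 10 of the 55487 genes listed, and each was found once in both sets of values. Tetraspanins are small proteins with several membrane-spanning segments, and they gather other membrane proteins, such as integrins, growth factor receptors and proteases, into small membrane domains. Some sit mainly at the cell surface, others on endosomes and the vesicles released from them, and several are named as leukocyte surface antigens. In lymphocytes they are known as partners of antigen receptor complexes and of adhesion molecules. The 10 genes were chosen by symbol with the values of these libraries and earlier comparisons of them in view, and no recorded threshold sets them apart from the other tetraspanins. The fold changes and adjusted P values given for them are therefore descriptions of size against the spread between libraries, not independent evidence.

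All cells came from *Ebf1*-deficient lymphoid progenitor (LP) lines with Cas9 knocked in at *Rosa26*, derived from mouse fetal liver and kept on OP9 stroma, so every group shares the *Ebf1* deficiency and Cas9, and the results hold for such lines. They received sgRNA retroviruses with a human NGFR marker and were sorted as hNGFR+ CD45+ cells 5 days after transduction. In the first experiment, LPs with sgControl (against luciferase) or sgCbfb were compared with Phase 1 cells, LPs stimulated through Notch for 2 days on OP9 cells expressing DLL4, with the same sgRNAs. In the second, LPs carried sgControl, sgCbfb, sgCTCF or sgMed12. *Cbfb* encodes the partner that all RUNX proteins need for stable DNA binding, CTCF is an architectural DNA-binding protein, and Med12 is a subunit of the Mediator kinase module. Each group had 3 libraries, and several sgRNAs per gene were used together.

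Gene-assigned reads per library numbered 1363263 to 1743319 (first experiment) or 3354483 to 4326782 (second). The detection floor was set at 3 reads, which equals 1.72 to 2.20 and 0.693 to 0.894 CPM (counts per 1e+06 assigned reads). QuantSeq reads the 3′ end of a transcript, which an edit elsewhere in a gene need not remove, so target counts do not check the edits. *Cbfb* was at 75.8 to 92.7 CPM in sgControl and 35.7 to 45.8 in sgCbfb LPs, at 44.7 to 81.3 and 44.1 to 63.5 in Phase 1 cells, and at 109 to 124 and 41.6 to 55.4 in the second experiment. *Ctcf* was at 356 to 413 CPM with sgControl and 272 to 330 with sgCTCF, and *Med12* at 4.38 to 6.59 with sgControl and 3.20 to 9.61 with sgMed12. The progenitor transcripts *Ptprc*, *Flt3*, *Il7r* and *Cd34* were present in all groups. Of the B cell genes, *Cd79a* was at 0 in every library, while *Ebf1* itself was still counted at 143 CPM or more. The summed level of 7 early T genes was 37.8 to 55.5 CPM in sgControl LPs and 841 to 1009 CPM in sgControl Phase 1 cells. In each experiment, 1 library stood apart from its group. Replicate 3 of sgControl Phase 1 cells differed over 2-fold from the others at 14.2% and 15.7% of genes averaging over 10 CPM, against 4.20% to 6.46% for the other pairs of that experiment. Replicate 2 of sgMed12 differed at 5.58% and 2.44%, against 0.306% to 1.29% for the other pairs of its experiment. Values without them are given where a result rests on them.

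**Figure D1:**
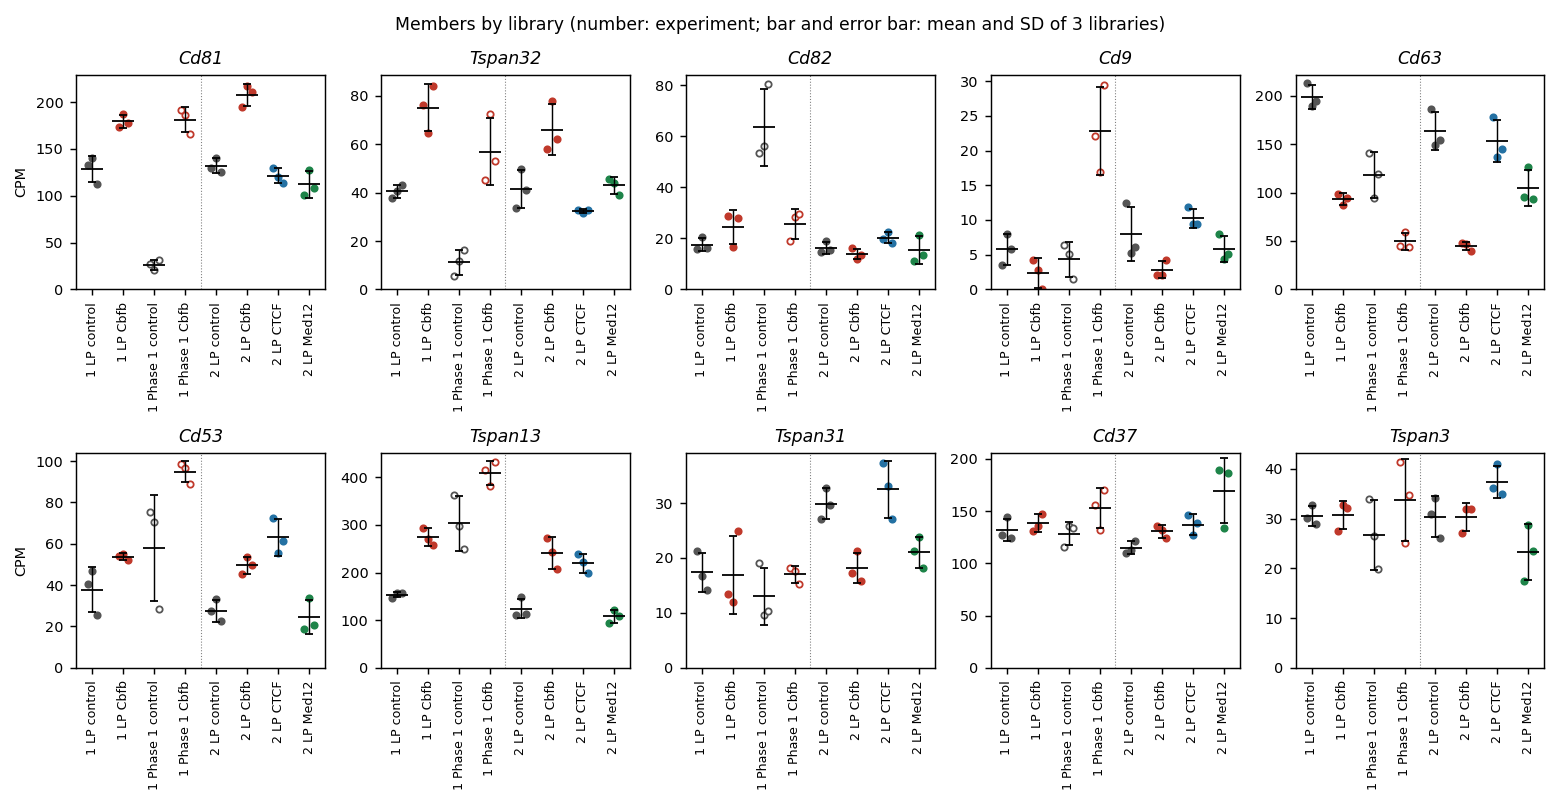
CPM of each member (vertical axis, from 0) in each of the 24 libraries by group (horizontal axis). Points are libraries, open for Phase 1 cells, and bars and error bars are the mean and SD of 3 libraries. *Cd81* and *Tspan32* were lowest in sgControl Phase 1 cells, *Cd82* was highest there, and *Cd9* was highest in sgCbfb Phase 1 cells.

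Genes were called at an adjusted P value under 0.05 (limma, over all genes tested), a change of the group mean over 2-fold and more than 10 CPM as the mean of either side. All 10 members passed the filter on low values. Log2 fold changes are given with the standard error of the fit (n = 3 libraries per group). The stage comparison with sgControl and the sgCbfb comparison in Phase 1 cells share the 3 sgControl Phase 1 libraries, and the edits of the second experiment share 1 set of sgControl libraries, so these comparisons are not independent. Without *Cbfb* editing, Notch stimulation went with fewer *Cd81* and *Tspan32* reads and more *Cd82* reads. These 3 of 10 members were called between Phase 1 and LP sgControl cells, where 3.39% of all genes were, and with *Cd63* and *Tspan13* 5 passed the adjusted P value alone, where 6.48% of all genes did. The median log2 fold change of the members was -0.33, beside -0.07 over all genes. Among sgCbfb cells only *Cd9* was called between the stages, where 1.19% of all genes were, and with *Cd63* and *Tspan13* 3 members passed the adjusted P value, where 2.24% of all genes did. For sgCbfb against sgControl, 5 members were called in Phase 1 cells (3 higher and 2 lower, 3.52% of all genes) and 6 passed the adjusted P value alone (5.97%). In LPs of the same experiment, 1 member was called (1.69% of all genes) and 2 passed (2.85%). The difference of the sgCbfb effect between the stages, tested as an interaction, was called for *Cd81*, *Cd82* and *Cd9*, where 1.19% of all genes were.

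In the second experiment, 1 member was called for sgCbfb (4.33% of all genes) and 7 passed the adjusted P value alone (12.5%). sgCTCF had 1 called member (2.43%) and 2 that passed (10.3%). sgMed12 had 0 called members with limma and also 0 with edgeR (1.03% of all genes with limma), 2 that passed the adjusted P value (7.22%) and 5 with an unadjusted P value under 0.05. With sgCTCF, the median log2 fold change was 0.27 over the members and -0.02 over all genes. With sgMed12 it was -0.22 and -0.02.

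**Figure D2:**
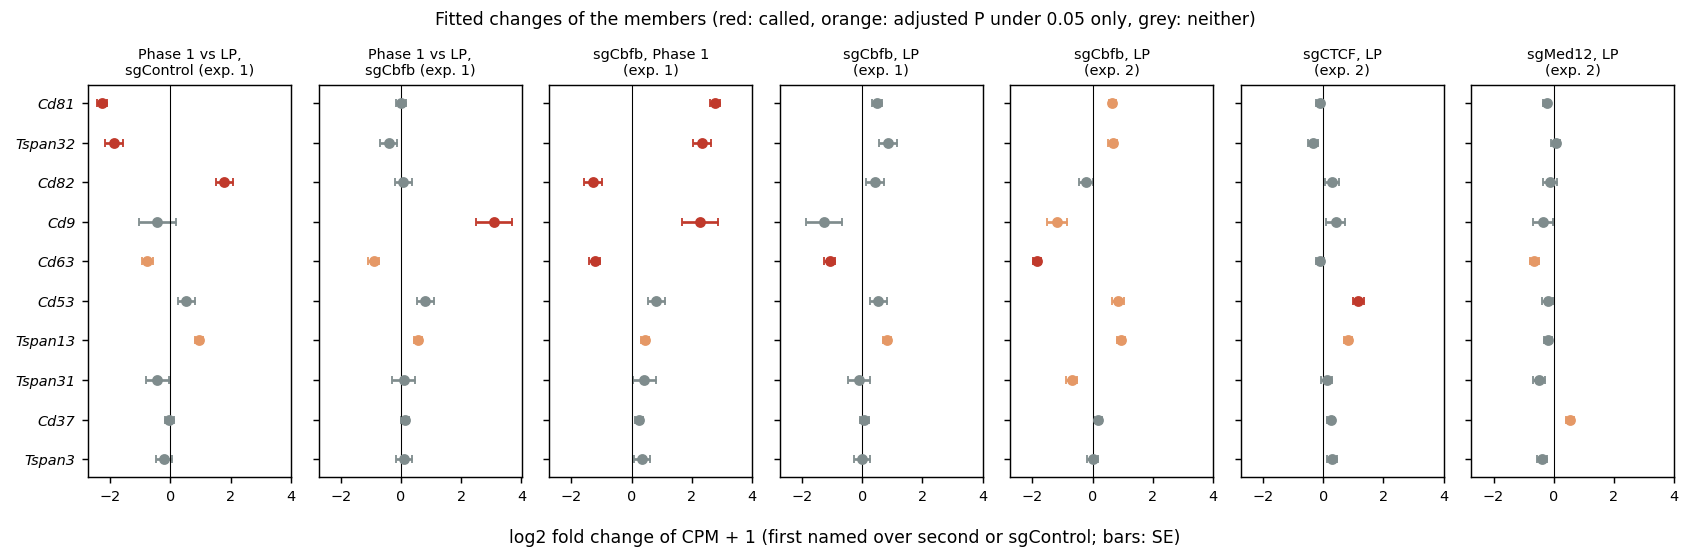
Fitted log2 fold changes of CPM + 1 (horizontal axis) with their standard errors for the 10 members (rows) in the 7 comparisons with sgControl or between stages (panels). Red points were called, orange points passed the adjusted P value only and grey points neither. *Cd81* and *Tspan32* lay on opposite sides of 0 in the sgControl stage comparison and in the Phase 1 sgCbfb comparison, and *Cd63* lay below 0 in the 3 sgCbfb comparisons.

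*Cd81* encodes a surface tetraspanin found on B and T cells. In LPs with sgControl, its level was 133, 141 and 113 CPM, and in Phase 1 cells with sgControl 26.8, 20.6 and 31.5 CPM. Every stimulated library lay below every LP library, a 4.89-fold lower mean (log2 fold change -2.26 ± 0.17 SE, adjusted P = 4.2e-09). With sgCbfb the libraries held 174, 187 and 178 CPM in LPs and 191, 187 and 166 CPM in Phase 1 cells, and the stages overlapped (0.01 ± 0.17, adjusted P = 0.99). Phase 1 cells with sgCbfb therefore had a mean 6.89-fold above that of Phase 1 sgControl cells (2.76 ± 0.17, adjusted P = 6.7e-10). The sgCbfb effect was larger in Phase 1 cells than in LPs by 2.28 ± 0.23 on the log2 scale (interaction, adjusted P = 7.7e-06). In LPs, sgCbfb libraries lay above sgControl libraries in both experiments. The change was 0.48 ± 0.17 in the first (adjusted P = 0.16) and 0.65 ± 0.11 in the second (adjusted P = 0.00011), where sgControl had 130, 141 and 125 CPM and sgCbfb 195, 217 and 211 CPM. In the first experiment the groups ran from sgControl Phase 1 cells through sgControl LPs to both sgCbfb groups, which overlapped. In the second, sgMed12, sgCTCF and sgControl overlapped at the low end and only sgCbfb lay apart.

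*Tspan32*, a tetraspanin largely restricted to blood cells and known for restraint of T cell proliferation, was also lowest in sgControl Phase 1 cells. LPs with sgControl had 37.8, 40.9 and 43.0 CPM, and Phase 1 cells with sgControl 5.65, 11.6 and 16.1 CPM, from 8, 18 and 22 reads. The mean was 3.64-fold lower after stimulation (-1.88 ± 0.29, adjusted P = 0.00015), with no overlap. With sgCbfb, LPs had 76.2, 64.8 and 84.2 CPM and Phase 1 cells 45.4, 72.3 and 53.0 CPM, which overlapped. In Phase 1 cells, sgCbfb libraries had a 5.11-fold higher mean than sgControl libraries (2.33 ± 0.29, adjusted P = 1.4e-05). In LPs the change was 0.87 ± 0.29 in the first experiment (adjusted P = 0.14, and 0.035 with edgeR) and 0.66 ± 0.16 in the second (adjusted P = 0.0041). The interaction of stage and sgCbfb was 1.47 ± 0.41 (adjusted P = 0.097). Without replicate 3 of sgControl Phase 1 cells, the library that stood apart, it was 1.77 (adjusted P = 0.0014).

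**Figure D3:**
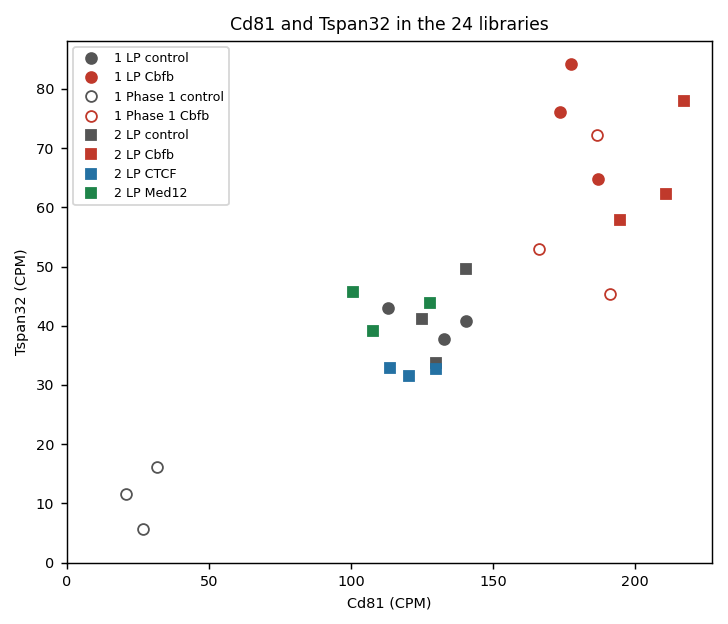
*Cd81* (horizontal axis, CPM) against *Tspan32* (vertical axis, CPM) in the 24 libraries, as circles for the first experiment and squares for the second, open for Phase 1 cells. The 3 sgControl Phase 1 libraries lie at the lower left, below 32 CPM of *Cd81*, and the 9 sgCbfb libraries of both experiments to the right, from 166 CPM of *Cd81* upwards.

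*Tspan32* and *Cd81* are neighbours. On GRCm38, *Tspan32* lies at chr7:143005046-143019644 and *Cd81* at chr7:143052739-143067934, both on the plus strand, with 33094 bases and no other protein-coding gene between them. Over the 24 libraries, centred within each experiment, the Pearson correlation of their log2 values was 0.92. The libraries of a group share their treatment and fall into clusters by group, and the value is given as a description. The other genes next to the pair, *Ascl2* upstream and *Trpm5* downstream, were at 0 in every library. *Tssc4*, which overlaps *Trpm5*, had 49.6 to 62.5 CPM in sgControl LPs, 38.7 to 40.2 in sgControl Phase 1 cells and 62.9 to 71.3 in sgCbfb Phase 1 cells. It was higher with sgCbfb in Phase 1 cells (0.77 ± 0.19, adjusted P = 0.016) but not called. In LPs of the first experiment the sgCbfb change was 0.09 ± 0.19 (adjusted P = 0.94). In the second it was -0.30 ± 0.17 (adjusted P = 0.29), where *Tspan32* and *Cd81* were higher. With sgCTCF *Tssc4* was lower (-0.52 ± 0.17, adjusted P = 0.0498), and neither member passed. The antisense gene *Tspan32os*, which shares 271 exon bases with *Tspan32*, did not exceed 0.268 CPM, and *R74862*, which shares 104 with *Cd81*, did not exceed 9.18 CPM. Whether the counting used strand is not given in the sources used here.

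**Figure D4:**
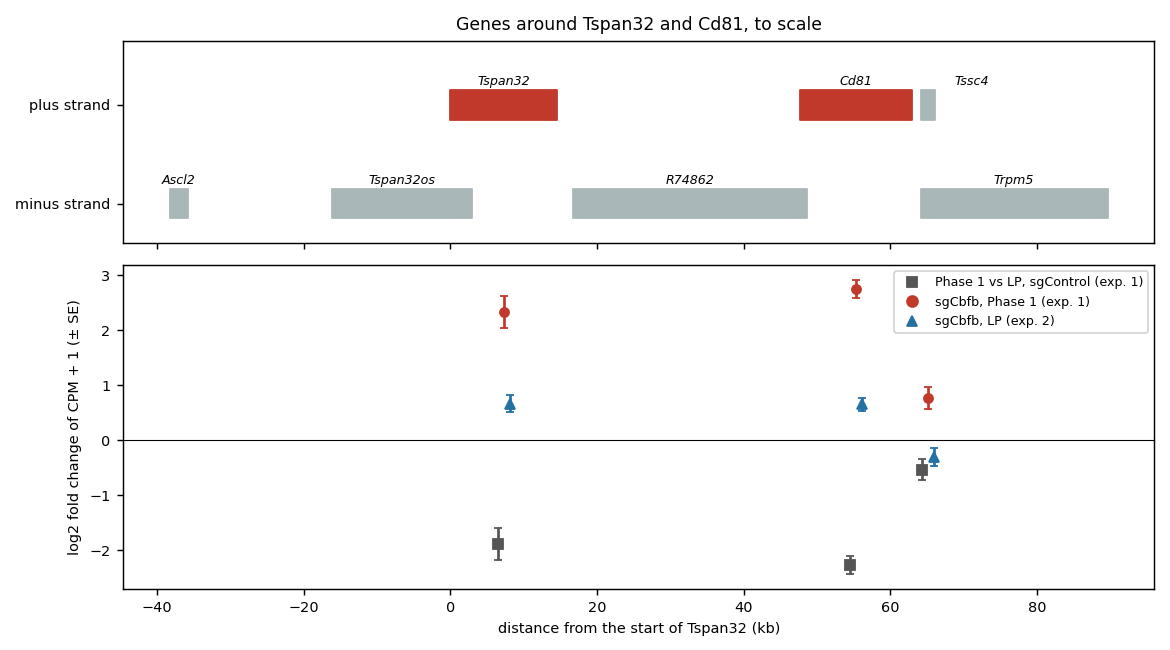
Genes around *Tspan32* and *Cd81*, to scale, by strand (upper panel), and log2 fold changes of CPM + 1 with standard errors for the genes that reached 10 CPM (lower panel), against the distance from the start of *Tspan32* in kb. Grey squares are Phase 1 against LP with sgControl, red circles sgCbfb in Phase 1 cells and blue triangles sgCbfb in LPs of the second experiment. For *Tspan32* and *Cd81* the red circles lie above 2 and the grey squares below -1.8.

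The promoters of this pair and of *Cd63*, the member lower with sgCbfb in all 3 comparisons, are shown because RUNX proteins bind DNA at the letters TGTGGT and the Notch cofactor RBPJ at TGGGAA. Both motifs were searched on both strands in the RefSeq promoter windows of GRCm38.p6, each of 300 bases and ending shortly after the start of transcription, with 13 windows for the 10 members. Capitals mark matches on either strand, written 5′ to 3′ on the strand of the gene, which is plus for all 3. The windows are chr7:143004796-143005095 for *Tspan32*, chr7:143052500-143052799 for *Cd81* and chr10:128909095-128909394 for *Cd63*.
Tspan32: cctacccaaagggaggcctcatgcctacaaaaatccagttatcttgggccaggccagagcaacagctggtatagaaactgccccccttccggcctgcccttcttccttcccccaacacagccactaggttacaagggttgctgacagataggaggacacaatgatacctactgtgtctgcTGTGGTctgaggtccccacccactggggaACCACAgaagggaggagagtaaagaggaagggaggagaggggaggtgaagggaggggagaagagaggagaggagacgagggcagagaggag
Cd81: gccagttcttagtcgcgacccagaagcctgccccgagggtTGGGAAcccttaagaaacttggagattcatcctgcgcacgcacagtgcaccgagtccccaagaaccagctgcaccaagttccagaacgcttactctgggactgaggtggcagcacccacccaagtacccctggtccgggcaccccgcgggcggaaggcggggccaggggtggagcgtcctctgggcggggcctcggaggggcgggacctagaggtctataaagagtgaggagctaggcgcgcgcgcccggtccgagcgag
Cd63: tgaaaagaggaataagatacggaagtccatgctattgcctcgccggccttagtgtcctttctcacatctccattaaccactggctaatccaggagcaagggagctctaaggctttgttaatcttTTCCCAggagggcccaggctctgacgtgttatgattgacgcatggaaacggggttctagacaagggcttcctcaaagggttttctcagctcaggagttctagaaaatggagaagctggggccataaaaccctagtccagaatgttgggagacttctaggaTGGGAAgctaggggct
The *Tspan32* window holds 2 RUNX matches (TGTGGT 70 bases before the start and ACCACA, the same letters on the other strand, 41 bases before it) and no RBPJ match. The *Cd81* window holds no RUNX match and 1 RBPJ match, and the *Cd63* window no RUNX and 2 RBPJ matches. Among all 32851 windows of this length, 16.8% hold the RUNX letters and 25.6% the RBPJ letters. Of the members, 4 have at least 1 window with the RUNX letters (*Tspan32*, *Cd82*, *Cd53* and *Tspan3*) and 5 with the RBPJ letters. Counted by window, as the shares of all windows are, 5 of the 13 hold the RUNX letters and 5 the RBPJ letters. A match is not a measured site, and distal elements were not searched.

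*Cd82* encodes a tetraspanin known as a suppressor of metastasis and as a surface antigen of activated T cells. It went the other way from *Cd81*. In LPs with sgControl it had 15.9, 20.4 and 16.1 CPM, and in Phase 1 cells with sgControl 53.6, 56.1 and 80.7 CPM, all above the LPs (3.63-fold, 1.79 ± 0.29, adjusted P = 0.00025). With sgCbfb it had 28.9, 16.6 and 27.8 CPM in LPs and 18.8, 28.3 and 29.5 CPM in Phase 1 cells, which overlapped (0.07 ± 0.29, adjusted P = 0.97). Phase 1 cells with sgCbfb had a 2.49-fold lower mean than those with sgControl (-1.28 ± 0.29, adjusted P = 0.0069). That call was lost without replicate 1 of sgCbfb Phase 1 cells (-1.09, adjusted P = 0.055). The interaction was -1.72 ± 0.41 (adjusted P = 0.036), and it ran from -1.96 to -1.52 with adjusted P values from 0.011 to 0.13 over the 20 alternatives, 10 of which kept the call. In the LPs of the second experiment, all 4 groups overlapped with their neighbours in level, from 11.3 to 22.6 CPM, and no change against sgControl passed. The early T genes, at 841 to 1009 CPM in sgControl Phase 1 cells, summed to 322 to 349 CPM in sgCbfb Phase 1 cells. In LPs of the first experiment their sum was higher with sgCbfb, at 68.8 to 81.3 against 37.8 to 55.5 CPM with sgControl. In the second it was 25.1 to 31.4 CPM with sgControl, 41.1 to 77.0 with sgCbfb and 61.3 to 62.9 with sgCTCF. *Tcf7* and *Cd3g* were at 0 in the sgCbfb LPs of the second experiment. The mast cell and basophil list, nearly all of it *Cpa3* with *Ms4a2*, *Fcer1a* and *Mcpt8* at 0, summed to 50.3 to 80.7 CPM in sgControl Phase 1 cells and 5.03 CPM or less elsewhere. The part of either list in the *Cd82* difference was not tested. *Cd82* lies at chr2:93419111-93463140 on the minus strand.

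*Cd9*, a surface tetraspanin of platelets, stromal cells and some lymphocytes, was a gene of few reads. In the first experiment it had 3.54, 8.05 and 5.78 CPM in sgControl LPs, 4.23, 2.87 and 0 in sgCbfb LPs and 6.35, 5.16 and 1.47 in sgControl Phase 1 cells. Phase 1 cells with sgCbfb had 22.0, 17.0 and 29.5 CPM, from 34, 27 and 50 reads, above all other libraries of that experiment. Their mean was 9.64-fold that of sgCbfb LPs (3.09 ± 0.61, adjusted P = 0.0043), a call that held under all 21 alternatives. The sgCbfb LP mean rests on 6, 5 and 0 reads, and the log2 fold change ran from 1.94 with a pseudocount of 5 to 4.36 with one of 0.1. Without replicate 3 of sgCbfb LPs, the library with 0 reads, it was 2.37 (adjusted P = 0.036). Against sgControl Phase 1 cells it was 5.28-fold higher (2.27 ± 0.61, adjusted P = 0.025). This call was lost without replicate 3 of sgControl (1.79, adjusted P = 0.072), without replicate 1, 2 or 3 of sgCbfb (adjusted P = 0.083, 0.053 and 0.12), with a pseudocount of 0.1 (0.22) and without the filter on low values (0.061). The interaction was 3.53 ± 0.86 (adjusted P = 0.042) and held in 10 of 20 alternatives, with adjusted P values from 0.0096 to 0.20. In LPs the sgCbfb libraries were not the higher ones. In the second experiment *Cd9* had 12.4, 5.32 and 6.09 CPM with sgControl and 2.09, 2.15 and 4.28 CPM with sgCbfb (-1.18 ± 0.33, adjusted P = 0.016, not called because neither of these groups reached a mean of 10 CPM). Without replicate 1 of sgControl that change was -0.85 (adjusted P = 0.15). The 5 megakaryocyte genes, with *Pf4* and *Ppbp* at 0 in every library, summed to 6.28 CPM or less. *Cd9* lies at chr6:125460266-125494791 on the minus strand, and *Gm26728*, which shares 218 exon bases on the other strand, did not exceed 1.18 CPM.

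*Cd63*, the tetraspanin of late endosomes, lysosomes and exosomes, was lower with sgCbfb in both stages and both experiments. In LPs of the first experiment it had 213, 189 and 194 CPM with sgControl and 98.7, 87.2 and 94.2 CPM with sgCbfb (2.13-fold lower, -1.08 ± 0.17, adjusted P = 0.00041). In Phase 1 cells the libraries held 141, 94.2 and 119 CPM with sgControl and 44.7, 59.7 and 44.2 CPM with sgCbfb (2.38-fold lower, -1.23 ± 0.17, adjusted P = 5.7e-05). In the second experiment, sgControl LPs had 186, 149 and 155 CPM and sgCbfb LPs 47.7, 47.2 and 40.1 CPM (3.63-fold lower, -1.84 ± 0.14, adjusted P = 1.8e-10). No sgCbfb library reached the lowest sgControl library of its comparison, and the 3 calls held under all 21 alternatives each. The interaction was -0.15 ± 0.24 (adjusted P = 0.90), so a difference between the stages was not detected. Notch stimulation also went with lower *Cd63*, 1.68-fold with sgControl (-0.76 ± 0.17, adjusted P = 0.0067) and 1.88-fold with sgCbfb (-0.91 ± 0.17, adjusted P = 0.0027), both under the fold needed for a call. *Cd63* had 95.8, 126 and 92.8 CPM with sgMed12 (-0.64 ± 0.14, adjusted P = 0.0074, passed in 18 of 21 alternatives) and 178, 137 and 145 CPM with sgCTCF, where it overlapped sgControl (-0.10 ± 0.14, adjusted P = 0.74). The sgMed12 change did not pass without replicate 1 of sgControl (adjusted P = 0.051), without replicate 3 of sgMed12 (0.063) or with only both groups in the fit (0.11), and was -0.78 without replicate 2 of sgMed12. *Cd63* lies at chr10:128900989-128912822 on the plus strand. Of its neighbours, *Gdf11* had 4.24 to 22.3 CPM and passed in no comparison with sgControl or between the stages, and *Rdh5* did not exceed 3.06 CPM.

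Marker lists also moved with *Cbfb* editing. Of the 7 lymphoid progenitor genes, 4 were called and higher with sgCbfb in first-experiment LPs (*Cd34*, *Dntt*, *Kit* and *Rag1*), 4 in Phase 1 cells (*Cd34*, *Dntt*, *Flt3* and *Rag1*) and 3 in the second experiment (*Cd34*, *Dntt* and *Rag1*). Between the stages with sgControl, *Flt3* and *Dntt* were called lower and *Kit* higher, and the interaction was called for *Flt3* in the positive and *Kit* in the negative direction. The list summed to 1414 to 1643 CPM in sgControl and 1760 to 2229 CPM in sgCbfb LPs, 1180 to 1283 and 1400 to 1541 CPM in Phase 1 cells, and 1245 to 1435 and 1545 to 1672 CPM in the second experiment. The genes of the list did not all move the same way. Mean *Ptprc* was lower with sgCbfb in these comparisons (620 to 501, 733 to 605 and 556 to 377 CPM). Mean *Flt3* was lower in LPs of both experiments (273 to 260 and 276 to 220 CPM). The summed level of 8 monocyte and macrophage genes was 82.2 to 109 CPM in sgControl and 505 to 582 CPM in sgCbfb LPs, 48.0 to 55.0 and 408 to 437 CPM in Phase 1 cells, and 73.1 to 88.3 and 700 to 797 CPM in the second experiment. In LPs the rise lay mostly in *Mrc1* (means 4.9 to 221 and 6.2 to 472 CPM in the 2 experiments) and *F13a1* (11.2 to 190 and 6.7 to 194). *Adgre1* led the sums of sgControl LPs. Its mean went from 60.3 to 100 CPM in first-experiment LPs, 17.3 to 99.3 in Phase 1 cells and 58.0 to 61.9 in the second experiment. Mean *Itgam*, the highest of the list in sgControl Phase 1 cells, did not rise there with sgCbfb (26.1 to 22.2 CPM). It went from 14.0 to 18.6 CPM in first-experiment LPs and from 8.6 to 14.6 in the second experiment. Of the other genes of this list, *Cd14* was at 0 in every library and *Lyz2* did not exceed 4.56 CPM. The sum of 4 plasmacytoid dendritic cell genes, nearly all of it *Ccr9* and *Cox6a2* with *Klk1* at 0, was 1496 to 1633 CPM in sgControl and 399 to 418 CPM in sgCbfb LPs, 278 to 375 and 175 to 220 CPM in Phase 1 cells, and 902 to 1168 and 106 to 113 CPM in the second experiment. *Siglech*, the remaining gene, had sgControl and sgCbfb means of 2.2 and 0.5 CPM in LPs and 3.5 and 0.6 in Phase 1 cells. In the second experiment they were 2.1 and 0.3 CPM. These means are near the floor, and between the stages with sgControl *Siglech* did not fall with the sum. The part of these lists in the changes of *Cd81*, *Tspan32*, *Cd9* and *Cd63* was not tested. The 10 stromal genes, listed as markers of carry-over of OP9 cells, summed to 25.2 CPM or less in the first experiment and 42.7 CPM or less in the second. The largest sum of the first experiment, in sgControl Phase 1 cells, was nearly all *Pdgfrb* (mean 15.1 CPM). *Col1a2*, *Col3a1*, *Dcn*, *Lum*, *Pdgfra*, *Sparc* and *Bgn* were at 0 there, so that sum is not a measure of carry-over. In sgCbfb Phase 1 cells, the group with the highest *Cd9*, the list summed to 4.12 to 14.9 CPM, led by *Sparc* (mean 5.3 CPM). Mean *Sparc* was 0.6 CPM in sgControl and 0.2 CPM in sgCbfb LPs of the first experiment. In the second experiment the sums were 5.02 to 30.9 CPM with sgControl, 2.0 to 20.3 with sgCbfb and 17.1 to 29.5 with sgCTCF. The part of the stromal list in the *Cd9* changes was not tested. In bulk libraries, fewer cells of a type and less RNA per cell cannot be told apart.

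*Cd53* encodes a tetraspanin found on nearly all leukocytes. It had 27.4, 33.1 and 22.4 CPM in sgControl LPs of the second experiment and 72.7, 55.4 and 61.2 CPM with sgCTCF, a 2.28-fold higher mean (1.17 ± 0.19, adjusted P = 0.00015) and the member called for sgCTCF under all 21 alternatives. With sgCbfb it had 45.6, 53.6 and 49.6 CPM (0.84 ± 0.19, adjusted P = 0.0030). With sgMed12 it had 18.6, 34.0 and 20.7 CPM, which overlapped sgControl. In the first experiment it had 40.7, 47.1 and 25.7 CPM in sgControl and 54.3, 55.1 and 52.1 CPM in sgCbfb LPs, and 75.5, 70.3 and 28.6 CPM in sgControl and 98.6, 96.8 and 89.0 CPM in sgCbfb Phase 1 cells. Neither of these sgCbfb differences passed (adjusted P = 0.49 and 0.10), and the Phase 1 difference of 0.81 ± 0.28 was 0.37 without replicate 3 of sgControl. Between the stages with sgControl the difference was 0.53 ± 0.28 (adjusted P = 0.31), and without that library 0.97 (adjusted P = 0.0016). *Cd53* lies at chr3:106759921-106790149 on the minus strand.

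*Tspan13*, a tetraspanin less studied in lymphocytes, was higher with sgCbfb in LPs of both experiments and with sgCTCF, each time short of the fold for a call. In LPs of the first experiment it had 147, 156 and 158 CPM with sgControl and 294, 271 and 257 CPM with sgCbfb (0.83 ± 0.13, adjusted P = 0.00042). In the second, sgControl had 112, 148 and 113 CPM, sgCbfb 273, 243 and 207 CPM (0.95 ± 0.13, adjusted P = 4.8e-06) and sgCTCF 238, 222 and 198 CPM (0.82 ± 0.13, adjusted P = 9.2e-05). sgMed12, at 94.7, 121 and 108 CPM, overlapped sgControl, and the sgCbfb and sgCTCF libraries overlapped each other. Stimulation with Notch went with a 1.97-fold higher mean with sgControl, at 363, 299 and 249 CPM (0.96 ± 0.13, adjusted P = 3.3e-05), and a 1.49-fold higher mean with sgCbfb, at 415, 382 and 431 CPM (0.58 ± 0.13, adjusted P = 0.016). The first of these became a call without replicate 3 of sgControl Phase 1 cells (1.09, adjusted P = 1.6e-09), without replicate 3 of sgControl LPs or with median-of-ratios scaling (1.03, adjusted P = 5.1e-06). In Phase 1 cells, the sgCbfb difference of 0.45 ± 0.13 had an adjusted P value of 0.046 and passed in 5 of 21 alternatives. *Tspan13* lies at chr12:36014557-36042500 on the minus strand. Its neighbour *Bzw2* had a 1.93-fold higher mean after stimulation with sgControl (adjusted P = 2.2e-05) and 1.48-fold lower with sgCbfb in Phase 1 cells (adjusted P = 0.0070), and passed for no edit in LPs.

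*Tspan31*, *Cd37* and *Tspan3* were called in no comparison with sgControl or between the stages. *Tspan31*, known from its amplification together with *Cdk4* in sarcomas, had 27.2, 32.8 and 29.7 CPM in sgControl LPs of the second experiment and 17.3, 21.2 and 15.9 CPM with sgCbfb (-0.70 ± 0.18, adjusted P = 0.011). That change missed the threshold without replicate 2 of sgControl (adjusted P = 0.057) or replicate 3 of sgCbfb (0.061). Its 4 groups in the first experiment overlapped from 9.68 to 25.0 CPM, and the sgCbfb difference in LPs there was -0.10 ± 0.37 (adjusted P = 0.97). The exons of *Tspan31* (chr10:127067280-127070264, minus strand) share 641 bases with those of *Cdk4* on the plus strand. *Cdk4* was at 158 to 260 CPM in the 24 libraries, and its reads could be counted to *Tspan31* if strand was not used, so the level of *Tspan31* is uncertain. *Cdk4* passed in none of the comparisons with sgControl or between the stages. It was lower with sgMed12 than with sgCTCF (-0.37 ± 0.13, adjusted P = 0.042), as *Tspan31* was. The nearest protein-coding gene at lower coordinates that does not overlap *Tspan31* is *Marchf9*. In the second experiment *Marchf9* was 2.46-fold lower with sgCbfb (-1.19 ± 0.27, adjusted P = 0.0036, called) and 1.96-fold higher with sgCTCF (adjusted P = 0.031). *Agap2*, the nearest at higher coordinates, passed in no comparison with sgControl or between the stages.

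*Cd37*, a leukocyte tetraspanin most abundant in mature B cells, was near level across most groups, at 116 to 170 CPM over the first experiment. In the second it had 110, 113 and 122 CPM with sgControl and 189, 133 and 186 CPM with sgMed12 (1.48-fold, 0.54 ± 0.12, adjusted P = 0.011). Without replicate 2 of sgMed12, the library that stood apart, the change was 0.70 (adjusted P = 8.3e-06), while without replicate 1 or 3 it did not pass (adjusted P = 0.056 and 0.085), nor with only both groups in the fit (0.13). *Tspan3*, a widely expressed tetraspanin, lay between 17.5 and 41.5 CPM in all libraries and passed in no comparison with sgControl or between the stages. *Cd37* lies at chr7:45233632-45239115 and *Tspan3* at chr9:56131725-56165477, both on the minus strand.

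The 3 edits of the second experiment were also compared with each other, where more genes passed the adjusted P value. Between sgCTCF and sgCbfb, 5 members passed (22.3% of all genes). With sgCTCF, *Cd63* was 3.41-fold, *Cd9* 3.61-fold and *Tspan31* 1.79-fold higher, and *Tspan32* 2.04-fold and *Cd81* 1.71-fold lower than with sgCbfb. The *Cd63* difference was 1.74 ± 0.14 (adjusted P = 3.4e-10) and that of *Cd81* -0.77 ± 0.11 (adjusted P = 7.4e-06). Between sgMed12 and sgCbfb, 6 passed (16.8% of all genes). *Cd63* was 2.33-fold higher with sgMed12 (1.20 ± 0.14, adjusted P = 3.8e-07), *Cd37* 1.30-fold higher, and *Tspan13*, *Cd53*, *Cd81* and *Tspan32* were 2.23-fold, 2.03-fold, 1.85-fold and 1.54-fold lower. Between sgMed12 and sgCTCF, 5 passed (20.0% of all genes), all lower with sgMed12. *Cd53* was 2.58-fold (-1.37 ± 0.19, adjusted P = 1.6e-05) and *Tspan13* 2.03-fold lower (-1.02 ± 0.13, adjusted P = 4.3e-06), and *Tspan3*, *Tspan31* and *Cd63* were 1.60-fold, 1.54-fold and 1.46-fold lower, beside 1.27-fold lower *Cdk4*, whose exons overlap those of *Tspan31*. Without replicate 2 of sgMed12, 8 and 7 members passed in the last 2 comparisons. Leaving out that library changes the fitted spread of all genes, and their share that passed without it is not given here. These higher counts are therefore not read as a trait of the members. The *Tspan31* difference from sgCTCF was lost without replicate 1 or 2 of sgCTCF or replicate 3 of sgMed12 (adjusted P = 0.12, 0.073 and 0.11), that of *Tspan3* without replicate 1 of sgMed12 (0.064) and that of *Cd63* without replicate 1 of sgCTCF (0.057). Against sgCbfb, the *Tspan32* difference was lost without replicate 2 of sgCbfb (0.071), and that of *Cd37* (adjusted P = 0.043) passed in 8 of 21 alternatives.

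Of 23 other mouse tetraspanins, 7 passed the filter on low values in the first experiment and 10 in the second. *Tspan2*, *Tspan9* and *Tspan14* were called in a comparison with sgControl or between the stages. *Tspan9* had 4.72, 1.86 and 1.28 CPM in sgControl LPs and 19.8, 14.2 and 19.1 CPM in sgControl Phase 1 cells (2.47 ± 0.60, adjusted P = 0.013). With sgCbfb, it had 0.648, 1.89 and 0 CPM in Phase 1 cells, 3 reads or fewer in each library, which is at the floor (adjusted P = 0.00062 against sgControl). *Tspan2* was at 181, 137 and 87.3 CPM in sgControl and 49.9, 42.7 and 53.0 CPM in sgCbfb Phase 1 cells (2.78-fold lower, adjusted P = 0.00017), and its mean in sgCbfb LPs was 2.60-fold lower in the second experiment (adjusted P = 1.9e-05). *Tspan14*, of the tetraspanin group that binds the sheddase ADAM10, had 64.2, 68.4 and 4.40 CPM in sgControl and 130, 128 and 111 CPM in sgCbfb Phase 1 cells. Its log2 fold change of 2.09 ± 0.56 (adjusted P = 0.026) was 0.88 ± 0.19 and no longer a call without replicate 3 of sgControl, and the call was also lost with a pseudocount of 0.1 or without the filter on low values.

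Of 14 known partners of tetraspanins, 11 were tested in each experiment, and those called with sgCbfb were all higher. Over all genes tested, 1.69% were called for sgCbfb in LPs of the first experiment, 3.52% in Phase 1 cells and 4.33% in the second experiment. The share of those that were higher is not given here, so the direction is not read as a trait of the partners. *Cd44*, an adhesion receptor, was 2.36-fold higher with sgCbfb in LPs and 2.53-fold in Phase 1 cells of the first experiment and 2.89-fold in the second (adjusted P = 0.0014, 0.00015 and 1.5e-09). *Itga6*, an integrin subunit, was called in Phase 1 cells (2.31-fold, adjusted P = 1.3e-06), *Kit*, the stem cell factor receptor, in LPs of the first experiment (3.22-fold, adjusted P = 5e-05) and *Hbegf*, a growth factor whose precursor binds CD9, in LPs of the second (3.92-fold, adjusted P = 0.00060). In Phase 1 cells the *Kit* difference was -0.62 ± 0.22 (adjusted P = 0.11), and the interaction was called in the negative direction (-2.28 ± 0.31, adjusted P = 0.00021). Between the stages with sgControl, *Itga4*, *Kit* and *Hbegf* were called higher in Phase 1 cells. Of 10 endosome and exosome genes, *Rab27a*, a GTPase of vesicle release, was called lower with sgCbfb in Phase 1 cells (2.29-fold, adjusted P = 0.00062) and in LPs of the second experiment (2.46-fold, adjusted P = 6.5e-07). *Sdcbp*, which encodes the exosome adaptor syntenin, was called higher with sgCbfb in Phase 1 cells (2.41-fold, adjusted P = 0.0079), and without replicate 3 of sgControl its change was 0.86 and no longer a call. *Lamp1*, *Lamp2* and *Ctsd*, of the lysosome to which CD63 also belongs, were called in none of the comparisons with sgControl or between the stages. In the second experiment, sgCbfb went with 1.36-fold higher *Lamp1* and 1.44-fold higher *Lamp2* but 1.57-fold lower *Ctsd* (adjusted P = 0.0058, 0.019 and 9.9e-05).

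For each member, the 2 other genes with the most similar pattern were found by the Pearson correlation of log2 values over the 24 libraries, centred within each experiment, among the 8622 genes whose group mean passed 10 CPM at least once per experiment. They were *Ckap4* (0.96) and *P2ry14* (0.96) for *Cd81*, and *Selenbp1* (0.94) and *Ckap4* (0.93) for *Tspan32*. *Myl10* (0.94) and *Jchain* (0.93) were nearest to *Cd63*, *Tmed3* (0.87) and *Il12rb2* (0.85) to *Cd82*, and *Samsn1* (0.88) and *Lsp1* (0.76) to *Cd9*. *Cysltr1* (0.91) and *Ifih1* (0.89) were nearest to *Tspan13*, and *Ppp3ca* (0.85) and *Rasa3* (0.84) to *Cd53*. *Mphosph6* (0.85) and *Atp6v0e* (0.85) for *Tspan3*, *Ier5* (0.76) and *Txndc11* (0.74) for *Tspan31* and *Rgl2* (0.78) and *Ddx5* (0.73) for *Cd37* completed the list. Among the members themselves, *Tspan13* and *Cd53* had a correlation of 0.87, and *Cd81* and *Cd82* one of -0.74. The libraries of a group share their treatment, and the values are descriptions.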

How the data were processed

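Gene expression was measured by QuantSeq, a 3′-end RNA sequencing method, in 24 libraries. The deposited values, headed TPM, summed to nearly the same total in every library, and all divided into whole reads (100% within 0.1 read), so they are CPM without length correction. The submitters' processing notes name fastp, STAR and mm10, and versions and the use of strand are not given in the sources used here. The authors deposited CPM for each library and, per the file headers, 1 column of means, which was not used, nor was a line without a gene identifier (0.231 to 0.734 CPM). Each library was scaled to its own total, and the experiments were deposited as separate sets of values. Tests were made within experiments only, and differences between the experiments were not tested.

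A gene entered the test if 3 or more libraries of the experiment reached 1 CPM (13239 and 13177 genes). limma 3.58.1 (R 4.3.3) was fitted to log2(CPM + 1), with all 4 groups of an experiment in 1 fit, a trend of the variance with the level and Benjamini-Hochberg adjustment over all genes tested. Fold changes are ratios of group means, and log2 fold changes, on the log2(CPM + 1) scale, understate changes of low genes. The interaction was called on the adjusted P value where any group averaged over 10 CPM, and the comparisons between edits on the adjusted P value alone. edgeR 4.0.16 on the recovered reads was an alternative, beside other pseudocounts, filters, scaling and samples. On simulated data in the design of the first experiment, limma called 195 of 200 changed genes and 2 unchanged ones (12884 genes tested). In the design of the second, it called 197 of 200 and 0 (12490). The changed genes were drawn from better expressed ones and changed by more than 2-fold, with 1 dispersion for all genes and no outlying library. These counts hold for the simulated data only, and genes of few reads such as *Cd9* are not covered. The share of changed genes found in the real libraries was not tested. The methods describe the replicates as biologically independent. An exact two-sided permutation test of 3 against 3 libraries cannot go below P = 0.1, so single genes were not tested that way. Depth covers counting error only. Positions are from GENCODE M21, which held 55141 of the 55487 identifiers. All members were named, other tetraspanins, partners and endosome genes where called, and *Lamp1*, *Lamp2* and *Ctsd* after their values were seen. Members and gene lists were chosen with earlier results of these data known. 1 gene of the lists is not reported here.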

Additional observations from a re-analysis of the deposited data

Results flagged for a closer look

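For 3 members the effect of sgCbfb differed between Phase 1 cells and LPs by the interaction test (limma). On the log2 scale, the sgCbfb effect in Phase 1 cells exceeded that in LPs by 2.28 for *Cd81* (adjusted P = 7.7e-06), where 3 of 3 sgCbfb libraries lay above every sgControl library in both stages. It exceeded that in LPs by 3.53 for *Cd9* (adjusted P = 0.042), where sgCbfb libraries were the higher ones in Phase 1 cells and overlapped sgControl in LPs at 8.05 CPM or less. For *Cd82* the difference was -1.72 (adjusted P = 0.036), with 3 of 3 sgCbfb libraries below every sgControl library in Phase 1 cells and overlapping groups in LPs. The *Cd81* difference was called in all 20 alternatives, those of *Cd9* and *Cd82* in 10 of 20 each. Groups of 3 libraries are too small to test for a single outlying library, and the members had been chosen with these values in view.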

How the results depend on the processing

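No member reversed its direction past the threshold under any alternative. Of 230 counts of called members, 211 stayed within 1.5 times the reported count and 19 did not. Without the fold threshold, the called members were 2 for sgCbfb in LPs of the first experiment, 5 for Phase 1 against LP with sgControl, 3 for the same with sgCbfb, 6 for sgCbfb in the second experiment, 2 for sgCTCF and 2 for sgMed12. With a pseudocount of 0.1, the interaction was called for 1 member, *Cd81*. Leaving out 1 library at a time gave 1 to 1 called members for sgCbfb in LPs and 3 to 5 in Phase 1 cells, 3 to 4 for the stages with sgControl and 1 to 2 with sgCbfb, 1 to 4 for the interaction, 1 to 2 for sgCbfb in the second experiment, 1 to 1 for sgCTCF, 0 to 0 for sgMed12, 5 to 5 for sgCTCF against sgCbfb, 4 to 8 for sgMed12 against sgCbfb and 3 to 7 for sgMed12 against sgCTCF. The 3 for sgCbfb in Phase 1 cells came without replicate 1 of sgCbfb, which ended the calls of *Cd9* and *Cd82*, and the 1 for the interaction came without any 1 of 7 libraries, sgControl LPs 1 to 3, sgCbfb LP 3 and sgCbfb Phase 1 cells 1 to 3. The 2 for the stages with sgCbfb came without sgCbfb Phase 1 replicate 2, those for sgCbfb in the second experiment without sgControl replicate 2 or sgCbfb replicate 3, and the 3 for sgMed12 against sgCTCF without sgCTCF replicate 1. With median-of-ratios scaling, 2 members were called higher and 2 lower between the stages with sgControl, against 1 and 2. edgeR on the recovered reads called 161 to 572 of all genes in the comparisons with sgControl or between stages, against 136 to 570 with limma.

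Libraries with the same replicate number were at most weakly alike. The correlations of same-numbered libraries' deviations from the group means lay between -0.01 and 0.10 (first experiment) or -0.06 and 0.11 (second), with 1 and 2 of 18 over 0.1. Among the 3 libraries of another group, a library matched its own number best in 16 and 24 of 36 cases. A weak pairing can therefore not be excluded, above all in the second experiment. With the replicate block, the called members were 1, 5, 3 and 1 in the first experiment (sgCbfb in LPs, sgCbfb in Phase 1 cells, stages with sgControl, stages with sgCbfb), 3 for the interaction, 1, 1 and 0 for sgCbfb, sgCTCF and sgMed12, and 5, 6 and 5 between edits, the same genes as without it. Of 963 values behind the 46 results that passed, 883 stayed past the threshold and 80 did not, and of 1337 values behind the 64 that did not pass, 20 came to pass. At 3 reads per library as the floor, changes of *Cd9* in particular were limited by depth. The causes of these shifts were not tested.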
